A study of Mus musculus with 16 samples.

Results

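A list of 7 secreted or secretion-related genes, taken as earlier reported targets of integrin α3β1 in whatever cell type, was followed across the 4 groups of cells. The genes were *Fbln2*, *Bmp1*, *Ptgs2*, *Il1a*, *Csf1*, *Prl2c2* and *Prl2c3*. They were found by gene symbol in the deposited count table, where 7 of 7 were present among 14474 genes, and all 7 had between 1025 and 44705 counts in every library. MKα3− cells are immortalized mouse keratinocytes that carry no α3 integrin subunit. MKα3+ cells derive from them and have human α3 integrin put back. Each line received LN332 (laminin-332) at 0.02 mg/mL in the medium, or the same volume of vehicle, for 16 to 24 h, with 4 replicates per group. All cells grew on collagen-coated dishes in low-calcium medium at a reduced temperature. Each genotype was represented by a single line, so the return of α3 and any other difference between the lines cannot be told apart. The study describes its in vitro data points as experimental replicates, and no source used here says whether these libraries came from separate cultures, so the p-values measure the spread between these libraries, which may be technical.

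Total counts per library ranged from 21735708 to 29338370, with a median of 27036993. Levels are given as CPM, the counts scaled to a common library total, after TMM normalization, a scaling that aligns the bulk of genes between libraries. The targeted gene *Itga3* did not separate the lines by its mouse reads, with 259 ± 42.4 CPM in MKα3− and 277 ± 46.8 CPM in MKα3+ libraries of the vehicle groups (SD, n = 4 each). Of 8 basal keratinocyte markers all 8 were measured, and *Krt5* (2139 to 6986 CPM) and *Krt14* (2905 to 8296 CPM) were abundant in every library. *Krt15* was low, at 0.504 to 10.4 CPM, and *Trp63* was at 30.4 to 168 CPM. The remaining markers of this list lay between 93.1 CPM (lowest, *Itga6*) and 2010 CPM (highest, *Col17a1*). Of 6 macrophage markers all 6 were in the table. Their summed level was 40.1 to 91.3 CPM in vehicle-treated and 39.4 to 105 CPM in LN332-treated MKα3− cells, against 107 to 378 CPM and 59.2 to 386 CPM in the corresponding MKα3+ groups. The markers did not contribute equally to this sum, as *Lyz2* reached 237 CPM and *Ptprc* at most 3.81 CPM. The median of each of the 6 was higher in MKα3+ cells in either treatment. For *Cd68* the ranges overlapped, and its medians in LN332 were nearly equal (19.6 against 19.1 CPM). The sum exceeded 300 CPM in 3 libraries, MKα3+ vehicle replicates 3 and 4 and MKα3+ LN332 replicate 4. These are bulk samples, in which more cells of a type and more RNA per cell cannot be told apart.

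Integrin α3β1 is a receptor for laminin-332, the main adhesive laminin of the epidermal basement membrane, and keratinocytes both secrete this ligand and bind to it. Keratinocytes also release proteins that act on the matrix and on neighbouring cells of the dermis. Among the genes described here, *Fbln2* encodes fibulin-2, a matrix glycoprotein that binds laminins and other basement membrane proteins, and *Bmp1* encodes a secreted metalloproteinase that trims procollagens and laminin chains. *Ptgs2* encodes cyclooxygenase-2, the inducible enzyme of prostaglandin synthesis. *Il1a* encodes interleukin-1α, a cytokine that epithelial cells hold in store, and *Csf1* encodes the growth factor of macrophages. *Prl2c2* and *Prl2c3* encode proliferins, secreted members of the prolactin family.

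The proliferin genes are near-copies, and their sequences set how far their counts can be read apart. In GRCm38.p6, *Prl2c2* lies at Entrez 18811, chromosome 13, 12996120 to 13005393, minus strand and *Prl2c3* at Entrez 18812, chromosome 13, 12790816 to 12800093, minus strand. Over 672 coding bases of the GENCODE M21 transcripts they differed at 3 bases (99.6% identical), with an identical run of 353 bases, and 62.7% of all 100-base windows were the same in both. Another copy, *Prl2c5*, differed from *Prl2c2* at 26 and from *Prl2c3* at 27 of the same bases. The stretches around the 3 differing bases are shown because, within the coding sequence, only reads that cover such a base can tell *Prl2c2* from *Prl2c3*. The untranslated ends were not compared. Capitals mark the base at which *Prl2c2* and *Prl2c3* differ, and coding bases are counted from the A of the start codon.
Prl2c2, coding bases 1 to 34: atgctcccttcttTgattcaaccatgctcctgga
Prl2c3, coding bases 1 to 34: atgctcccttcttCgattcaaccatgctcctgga
Prl2c5, coding bases 1 to 34: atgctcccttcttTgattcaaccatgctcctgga
Prl2c2, coding bases 180 to 220: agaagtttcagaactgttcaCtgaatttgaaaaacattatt
Prl2c3, coding bases 180 to 220: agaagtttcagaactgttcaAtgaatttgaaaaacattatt
Prl2c5, coding bases 180 to 220: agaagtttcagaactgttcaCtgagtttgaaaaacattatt
Prl2c2, coding bases 299 to 339: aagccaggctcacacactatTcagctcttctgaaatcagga
Prl2c3, coding bases 299 to 339: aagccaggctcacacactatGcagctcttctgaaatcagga
Prl2c5, coding bases 299 to 339: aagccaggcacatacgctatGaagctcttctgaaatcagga
At the first and second of these bases *Prl2c5* carried the base of *Prl2c2*, and at the third that of *Prl2c3*.

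RefSeq promoter sequences of GRCm38.p6 (250 bases before to 50 after the start site) were held for 5 of the 7 genes. The start site of a window need not be the outermost start of the gene as its position is given here, and lay 304 bases inside it for *Fbln2*, 214 for *Il1a* and 14 for *Prl2c3*, and at it for *Csf1*. Those of the 4 genes that were higher in MKα3+ cells in the tests given further on are shown, since the same comparison moved all of them. Capitals mark matches, on either strand, to an AP-1-like pattern (TGANTCA, with any base at N), a GC box (GGGCGG) or a TATA motif (TATAAA).
*Fbln2* promoter, chr6:91212514-91212813, plus strand: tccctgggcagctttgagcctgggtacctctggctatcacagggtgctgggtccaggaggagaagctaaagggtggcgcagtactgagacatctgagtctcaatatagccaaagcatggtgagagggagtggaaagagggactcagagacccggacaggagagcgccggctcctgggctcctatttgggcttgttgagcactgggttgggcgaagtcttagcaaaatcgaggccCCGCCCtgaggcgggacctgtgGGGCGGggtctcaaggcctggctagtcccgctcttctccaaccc
*Csf1* promoter, chr3:107760420-107760719, minus strand: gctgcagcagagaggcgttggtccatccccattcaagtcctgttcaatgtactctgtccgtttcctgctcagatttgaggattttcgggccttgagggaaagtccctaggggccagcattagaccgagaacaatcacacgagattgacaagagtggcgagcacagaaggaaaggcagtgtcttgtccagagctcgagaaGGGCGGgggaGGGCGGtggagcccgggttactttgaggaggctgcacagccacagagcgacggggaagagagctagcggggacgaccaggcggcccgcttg
*Il1a* promoter, chr2:129309923-129310222, minus strand: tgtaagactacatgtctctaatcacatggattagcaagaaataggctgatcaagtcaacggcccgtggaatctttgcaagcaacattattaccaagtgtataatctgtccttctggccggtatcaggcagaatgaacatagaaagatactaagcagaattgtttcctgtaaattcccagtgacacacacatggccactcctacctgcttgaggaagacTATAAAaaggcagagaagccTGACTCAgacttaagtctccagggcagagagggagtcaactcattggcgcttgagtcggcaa
*Prl2c3* promoter, chr13:12800030-12800329, minus strand: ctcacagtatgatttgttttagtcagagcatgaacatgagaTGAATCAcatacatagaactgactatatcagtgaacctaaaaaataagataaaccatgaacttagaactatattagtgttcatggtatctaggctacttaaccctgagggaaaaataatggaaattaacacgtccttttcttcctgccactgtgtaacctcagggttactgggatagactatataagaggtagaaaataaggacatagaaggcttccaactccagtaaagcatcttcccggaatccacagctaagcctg
The *Fbln2* and *Csf1* windows each held 2 GC boxes and no AP-1-like match, and the *Il1a* window held an AP-1-like match (TGACTCA) and a TATA motif. The *Prl2c3* window matched the pattern only as TGAATCA, with A at the open base, and is not called an AP-1 site here. Among 32851 promoters of this length, 35.7% held the GC box, 7.81% the AP-1-like pattern with any base at N and 13.6% the TATA motif. No motif was in all 4 windows. The TEAD motif (GGAATG, in 14.7% of promoters) and the E-box (CACGTG, in 7.15%) matched none of the 4, and the E-box was in the window of *Ptgs2* together with a GC box. The corresponding window of *Prl2c5* was 95.3% identical to that of *Prl2c3*, with 14 differences over 301 aligned positions, and its copy of the TGAATCA stretch did not match the pattern. A match is a description of letters in this window.

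In MKα3+ cells 4 of the 7 genes were higher than in MKα3− cells in vehicle, and 0 were lower. The 4 were *Fbln2*, *Csf1*, *Prl2c3* and *Il1a*, and the same 4 were higher in LN332. A gene was called changed when its adjusted p in limma-voom (Benjamini-Hochberg, all genes) was under 0.05 and its log2 fold change was above 0.5 in size. By this rule 18.5% of all genes were called in vehicle (10.9% higher, 7.56% lower) and 20.6% in LN332 (11.7% higher, 8.92% lower). The median log2 fold change of the 7 genes was 0.64 in vehicle and 0.61 in LN332, against 0.01 and 0.01 over all genes. With edgeR 4 members were called in vehicle (18.3% of all genes) and 4 in LN332 (21.1%), and with DESeq2 likewise 4 (19.4%) and 4 (21.9%). The plot of levels by library shows the range from *Fbln2*, with the widest gap between the lines, to *Bmp1*, with hardly any.

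**Figure D1:**
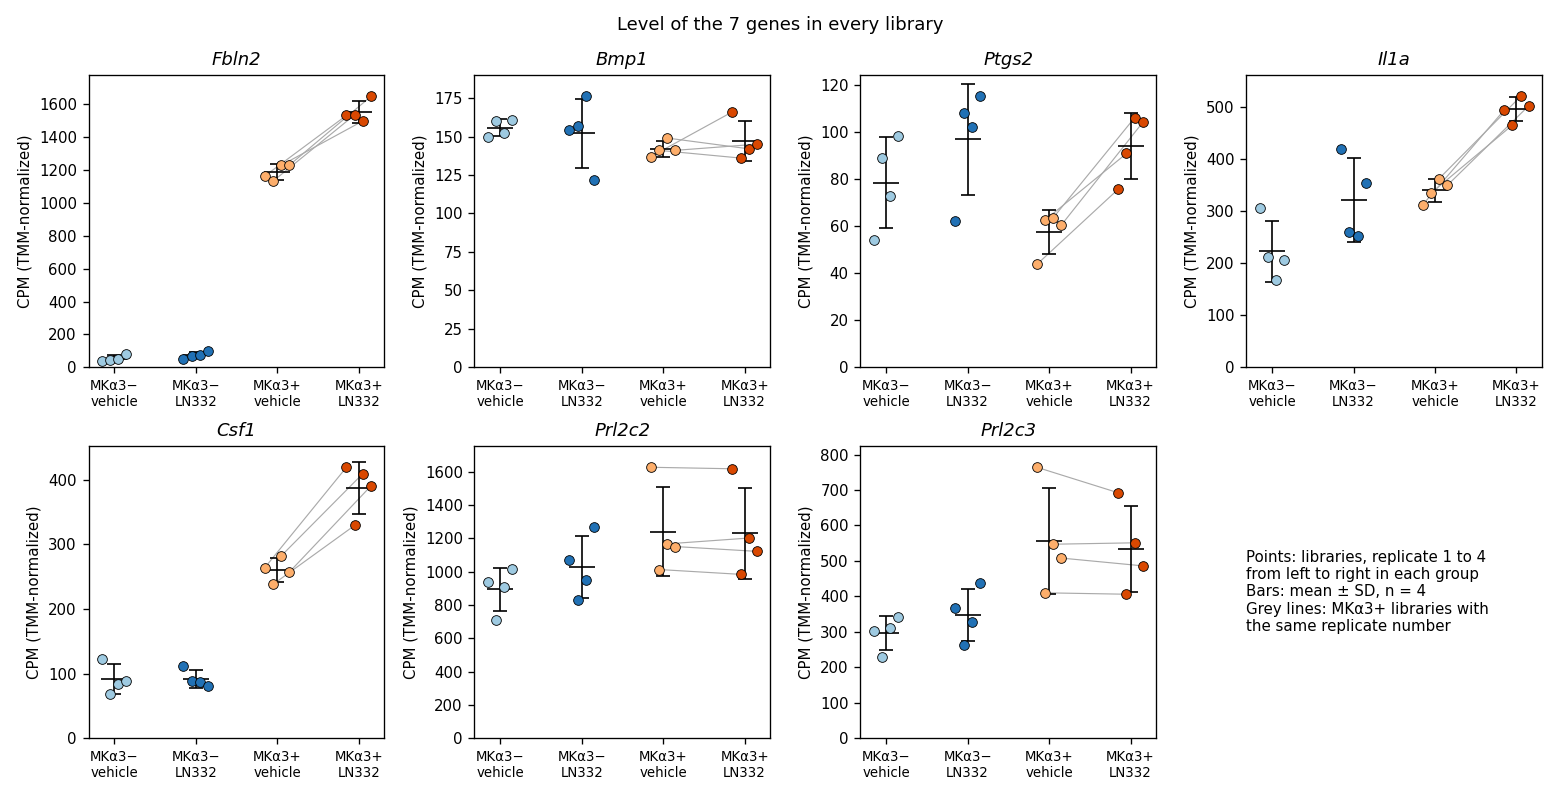
Level of each gene in CPM (vertical axes, from 0) in the 16 libraries, by group. Points are libraries, bars the mean ± SD (n = 4), and grey lines join MKα3+ libraries with the same replicate number. *Fbln2* and *Csf1* of MKα3+ cells lie above every MKα3− library, with LN332 libraries above vehicle libraries, and *Bmp1* is at a like height in all groups.

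*Fbln2* (Entrez 14115, chromosome 6, 91212460 to 91272540, plus strand) showed the widest difference of the 7. Vehicle-treated MKα3− cells had 36, 43, 52.8 and 81 CPM in replicates 1 to 4, and LN332-treated MKα3− cells 52.1, 71.8, 76.3 and 102 CPM. Vehicle-treated MKα3+ cells had 1163, 1131, 1227 and 1228 CPM, and LN332-treated MKα3+ cells 1530, 1533, 1496 and 1645 CPM. The lines did not overlap, and within MKα3+ cells each LN332 library was above each vehicle library. In vehicle the level rose 23.4-fold (95% interval 16.9 to 32.4), or 4.55 on the log2 scale (SE 0.22, adjusted p = 3.05e-10). In LN332 the difference on that scale was 4.40 (SE 0.23, adjusted p = 4.28e-10). The relative spread was wider in the line with the lower level, with a coefficient of variation of 37.2% in vehicle-treated MKα3− cells and 4.09% in vehicle-treated MKα3+ cells. In order of level, vehicle-treated MKα3− cells came first and LN332-treated MKα3− cells next, and these neighbours overlapped.

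*Bmp1* (Entrez 12153, chromosome 14, 70474555 to 70520716, minus strand) was nearly level across the groups. It had 150, 160, 152 and 161 CPM in vehicle-treated and 154, 157, 176 and 122 CPM in LN332-treated MKα3− cells. It had 137, 141, 149 and 141 CPM in vehicle-treated and 166, 136, 142 and 145 CPM in LN332-treated MKα3+ cells. In vehicle the highest MKα3+ library lay just under the lowest MKα3− library, and in LN332 the groups overlapped. The log2 fold change between the lines was -0.13 in vehicle (95% interval -0.34 to 0.08, adjusted p = 0.35) and -0.04 in LN332 (95% interval -0.25 to 0.17, adjusted p = 0.796). The exact permutation test on CPM gave p = 0.0286 in vehicle, the smallest that 4 libraries against 4 allow over 70 splits, for a difference of 13.5 CPM. These intervals hold the rescue effect on *Bmp1* within 0.34 on the log2 scale in either direction.

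*Ptgs2* (Entrez 19225, chromosome 1, 150100031 to 150108234, plus strand) had 54.1, 88.7, 72.7 and 98.1 CPM in vehicle-treated MKα3− cells and 62.2, 108, 102 and 115 CPM in LN332-treated MKα3− cells. It had 43.7, 62.5, 63.5 and 60.4 CPM in vehicle-treated MKα3+ cells and 75.7, 90.8, 106 and 104 CPM in LN332-treated MKα3+ cells. Replicate 1 was the lowest library in each of the 4 groups, and the lines overlapped in either treatment. In vehicle the means were 57.5 ± 9.29 CPM with α3 and 78.4 ± 19.3 CPM without it (SD, n = 4 each), and the log2 fold change of -0.43 did not pass the test (SE 0.20, adjusted p = 0.127). Without MKα3− vehicle replicate 1 it was -0.59 with an adjusted p of 0.0351, past the threshold. With the replicate number as a block it was again -0.43, now with an adjusted p of 0.0022, and missed only the size threshold. Sample quality weights gave -0.38 with an adjusted p of 0.0253, likewise too small for that threshold. Over all alternative fits the adjusted p of this difference ran from 0.0022 to 0.307. In LN332 the log2 fold change between the lines was -0.02 (95% interval -0.44 to 0.41, adjusted p = 0.962). Its lowest group mean was thus that of vehicle-treated MKα3+ cells, and the means of the LN332-treated groups, 94.1 and 97 CPM, did not differ beyond their spread.

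*Il1a* (Entrez 16175, chromosome 2, 129299609 to 129310186, minus strand) was higher in MKα3+ cells by about the same ratio in either treatment. Vehicle-treated MKα3− cells had 306, 212, 168 and 207 CPM and LN332-treated MKα3− cells 420, 260, 252 and 355 CPM. Vehicle-treated MKα3+ cells had 313, 335, 363 and 350 CPM and LN332-treated MKα3+ cells 495, 466, 521 and 503 CPM. Replicate 1 was the highest MKα3− library in either treatment, and in vehicle, at 306 CPM, it lay close below the lowest MKα3+ library at 313 CPM. The log2 fold change between the lines was 0.64 in vehicle (SE 0.17, adjusted p = 0.00791) and 0.65 in LN332 (SE 0.17, adjusted p = 0.0074). LN332-treated MKα3− cells (322 ± 80.4 CPM) and vehicle-treated MKα3+ cells (340 ± 21.4 CPM, SD, n = 4 each) were neighbours in the order of levels and overlapped. Exons of *Il1a* share 222 bases (11.2% of their length) with *Gm14023* on the opposite strand, and the strand setting of the counting was not stated. *Gm14023* had at most 413 counts in a library, where *Il1a* had at least 4755. With the 3 libraries of the highest macrophage marker sums left out, the log2 fold change of *Il1a* in vehicle was 0.57. Its adjusted p was 0.109, no longer past the threshold, and in LN332 it was 0.65 with an adjusted p of 0.0356. Over all genes that smaller fit called 1902 in vehicle and 2399 in LN332, against 2676 and 2987 with all libraries.

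*Csf1* (Entrez 12977, chromosome 3, 107741048 to 107760469, minus strand) did not overlap between the lines in either treatment. Vehicle-treated MKα3− cells had 123, 68.8, 84.5 and 88.4 CPM and LN332-treated MKα3− cells 112, 88, 86.5 and 80.7 CPM. Vehicle-treated MKα3+ cells had 264, 238, 282 and 257 CPM and LN332-treated MKα3+ cells 419, 329, 409 and 390 CPM. The MKα3− groups lay on top of each other, and the MKα3+ groups stood apart from them and from each other. The log2 fold change between the lines was 1.54 in vehicle (SE 0.15, adjusted p = 4.98e-07) and 2.08 in LN332 (SE 0.15, adjusted p = 2.07e-08), a 2.91-fold and a 4.22-fold higher level. The macrophage marker sum was also higher in most MKα3+ libraries, and its part in the result was not tested. Among the LN332-treated MKα3+ libraries the sum was 59.2, 93.5, 146 and 386 CPM in replicates 1 to 4. With the 3 libraries of the highest sums left out, the log2 fold change of *Csf1* was 1.49 in vehicle and 2.07 in LN332, with adjusted p-values of 0.000132 and 1.75e-06. That fit did not make the sums alike. The MKα3+ vehicle libraries left in had 120 and 107 CPM, above all MKα3− vehicle libraries (40.1 to 91.3 CPM). In LN332 those left in overlapped with the MKα3− libraries (39.4 to 105 CPM).

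Of the proliferin genes, *Prl2c3* was called higher in MKα3+ cells in either treatment and *Prl2c2* in neither. In some alternative fits, given below, *Prl2c2* in vehicle missed only the size threshold. *Prl2c3* had 303, 230, 312 and 342 CPM in vehicle-treated and 366, 262, 327 and 437 CPM in LN332-treated MKα3− cells. It had 764, 410, 547 and 508 CPM in vehicle-treated and 692, 406, 551 and 486 CPM in LN332-treated MKα3+ cells. Replicate 1 was highest and replicate 2 lowest in either MKα3+ group. In vehicle the lines did not overlap and differed by 0.88 on the log2 scale (SE 0.20, adjusted p = 0.00272). In LN332 they overlapped and differed by 0.61 (SE 0.20, adjusted p = 0.0249). The latter call in LN332 was lost without any of 4 libraries: MKα3− LN332 replicate 2 (adjusted p = 0.0857) or 3 (0.0518), or MKα3+ LN332 replicate 1 (0.0777) or 3 (0.0624). It was also lost with the 3 libraries of the highest macrophage marker sums left out (0.64, adjusted p = 0.0642).

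*Prl2c2* had 939, 711, 906 and 1019 CPM in vehicle-treated and 1068, 828, 949 and 1267 CPM in LN332-treated MKα3− cells. It had 1627, 1013, 1167 and 1151 CPM in vehicle-treated and 1618, 984, 1202 and 1122 CPM in LN332-treated MKα3+ cells, with replicate 1 again the highest. The groups overlapped, and the log2 fold change between the lines was 0.46 in vehicle (95% interval 0.09 to 0.83, adjusted p = 0.061) and 0.25 in LN332 (95% interval -0.12 to 0.62, adjusted p = 0.303). Without MKα3+ vehicle replicate 2 the first of these was 0.55 with an adjusted p of 0.046. Blocking on replicate number left the vehicle difference at 0.46 and lowered its adjusted p to 0.00417. DESeq2 gave 0.46 (adjusted p = 0.034), sample quality weights 0.38 (0.0221) and a fit of only the groups compared 0.45 (0.0413). In these fits *Prl2c2* missed only the size threshold of 0.5. In edgeR its adjusted p was 0.0585, and the alternatives ranged from 0.00417 to 0.182. *Prl2c5*, another copy in the table, stayed between 5.8 and 6.45 CPM in the group means, and its log2 fold change between the lines in vehicle was -0.02 (95% interval -0.38 to 0.35).

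Because *Prl2c2*, *Prl2c3* and *Prl2c5* share most of their coding sequence, their counts were also summed. Those of *Prl2c1* were added to the sum. That gene was not aligned here and had group means of 1.14 to 1.94 CPM. The sum of *Prl2c1*, *Prl2c2*, *Prl2c3* and *Prl2c5* was 1198 ± 178 CPM in vehicle-treated MKα3− cells and 1805 ± 418 CPM in vehicle-treated MKα3+ cells (SD, n = 4 each). Its log2 fold change between the lines was 0.57 in vehicle (SE 0.18, adjusted p = 0.0257) and 0.35 in LN332 (SE 0.18, adjusted p = 0.161). The division of counts within the pair moved as well. *Prl2c3* took 24.9 ± 0.582% of the *Prl2c2* and *Prl2c3* counts in vehicle-treated MKα3− cells and 30.8 ± 1.47% in vehicle-treated MKα3+ cells (SD, n = 4 each). In LN332 the shares were 25.2 ± 0.784% and 30.2 ± 0.922%. Each of the 8 MKα3− libraries lay between 24% and 25.6%, and each MKα3+ library between 28.8% and 31.9%. The difference between the lines had p = 0.0286 in either treatment in the exact two-sided permutation test, the smallest possible, and LN332 gave p = 0.457 in MKα3+ and p = 0.514 in MKα3− cells. How reads that fit more than 1 copy were counted is not given in the sources used here.

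**Figure D2:**
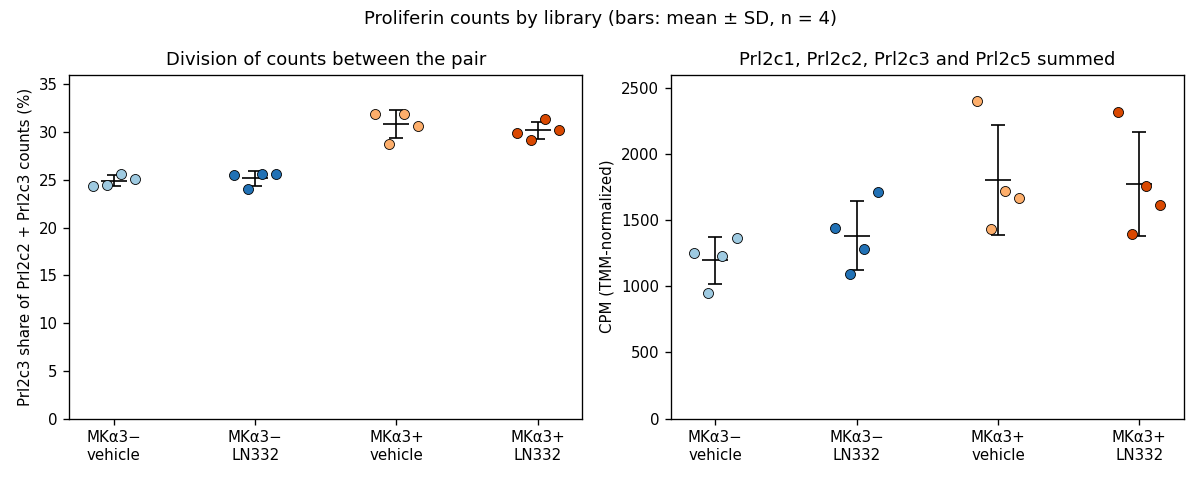
Left, the share (%) of the *Prl2c2* and *Prl2c3* counts assigned to *Prl2c3*, and right, the summed CPM of *Prl2c1*, *Prl2c2*, *Prl2c3* and *Prl2c5*, in the 16 libraries by group. Points are libraries in order of replicate number and bars the mean ± SD (n = 4). The shares of the lines do not overlap (at most 25.6% against at least 28.8%), and the vehicle sums do not overlap either, whereas the LN332 sums do.

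Added LN332 asked a second question, whether soluble laminin-332 changed these genes in a line with or without integrin α3β1. The subunit genes of another laminin-332 receptor, integrin α6β4, were measured in every library (*Itga6* at 93.1 to 320 CPM, *Itgb4* at 571 to 1217 CPM). In MKα3+ cells *Fbln2*, *Ptgs2*, *Il1a* and *Csf1* had higher means with LN332, and in each of these 4 genes every LN332 library was above every vehicle library. Of all genes, 4.78% were without overlap in this direction. Nevertheless 0 members passed both thresholds in limma-voom (0.187% of all genes did), 3 had an unadjusted p under 0.05, edgeR called 0 (0.0276% of all genes) and DESeq2 called 2 (0.836%). The log2 fold changes were 0.71 for *Ptgs2* (SE 0.20, adjusted p = 0.17), 0.57 for *Csf1* (SE 0.15, adjusted p = 0.162), 0.55 for *Il1a* (SE 0.17, adjusted p = 0.228) and 0.39 for *Fbln2* (SE 0.25, adjusted p = 0.715). The exact permutation p of each was 0.0286, the smallest possible. *Bmp1* (0.05, 95% interval -0.16 to 0.26), *Prl2c2* (-0.01, -0.38 to 0.37) and *Prl2c3* (-0.05, -0.48 to 0.37) showed no difference beyond their spread.

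MKα3+ libraries with the same replicate number deviated together across genes. Each of these 4 genes was higher with LN332 in all 4 numbered pairs, which already follows from the lack of overlap. The log2 ratio within pairs was 0.54 to 0.79 for *Ptgs2*, 0.48 to 0.66 for *Il1a*, 0.46 to 0.67 for *Csf1* and 0.29 to 0.44 for *Fbln2*. With the replicate number as a block, *Ptgs2* (adjusted p = 0.0019) and *Csf1* (adjusted p = 0.0107) rose past both thresholds, *Il1a* had an adjusted p of 0.0558 and *Fbln2* 0.196, and 1.51% of all genes were called. With only the MKα3+ libraries in the fit, the spread of the MKα3− libraries no longer entered, and *Ptgs2* (adjusted p = 0.0488), *Il1a* (0.0122) and *Csf1* (0.0207) were called, as were 0.746% of all genes. In that fit *Fbln2* had an adjusted p of 0.036, but its change of 0.39 was too small for the size threshold. With block and MKα3+ libraries alone the adjusted p-values of the 4 genes were between 7.93e-06 and 3.89e-05, *Fbln2* was again under the size threshold, and 3.63% of all genes were called. The call on these genes thus differed between fits while their log2 fold changes did not.

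In MKα3− cells 0 members passed the thresholds with LN332 in limma-voom, edgeR or DESeq2 (0.304%, 0.325% and 1.14% of all genes did), 2 had an unadjusted p under 0.05, and 0 of the 7 were without overlap (4.95% of all genes were). The log2 fold changes were 0.53 for *Fbln2* (SE 0.20, adjusted p = 0.247), 0.53 for *Il1a* (SE 0.17, adjusted p = 0.175), 0.30 for *Ptgs2* (95% interval -0.12 to 0.72) and 0.03 for *Csf1* (95% interval -0.27 to 0.33). The log2 ratio of same-numbered libraries was above 0 for all 4 numbers also here, for *Fbln2* (0.33 to 0.74), *Il1a* (0.29 to 0.78), *Ptgs2* (0.20 to 0.49), *Prl2c2* and *Prl2c3*, but not for *Csf1* (-0.13 to 0.35). The share of all genes with 4 such ratios above 0 was not counted, so these ratios only describe the libraries. Same-numbered MKα3− libraries did not deviate together for every number. With the replicate number as a block all the same, *Fbln2* (adjusted p = 0.0444) and *Il1a* (0.0491) passed both thresholds in limma-voom, as did 1.79% of all genes, and with only the MKα3− libraries in that fit the same 2 passed (0.0315 and 0.0477), with 1.29% of all genes. For *Fbln2* and *Il1a* the size was thus close to that in MKα3+ cells. Relative to their means, their CPM values varied more between MKα3− libraries. The SE from the joint fit was not larger in MKα3− cells, at 0.20 against 0.25 for *Fbln2* and 0.17 in either line for *Il1a*. *Prl2c2* (0.20) and *Prl2c3* (0.23) also missed the test, as did *Bmp1* (-0.04).

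**Figure D3:**
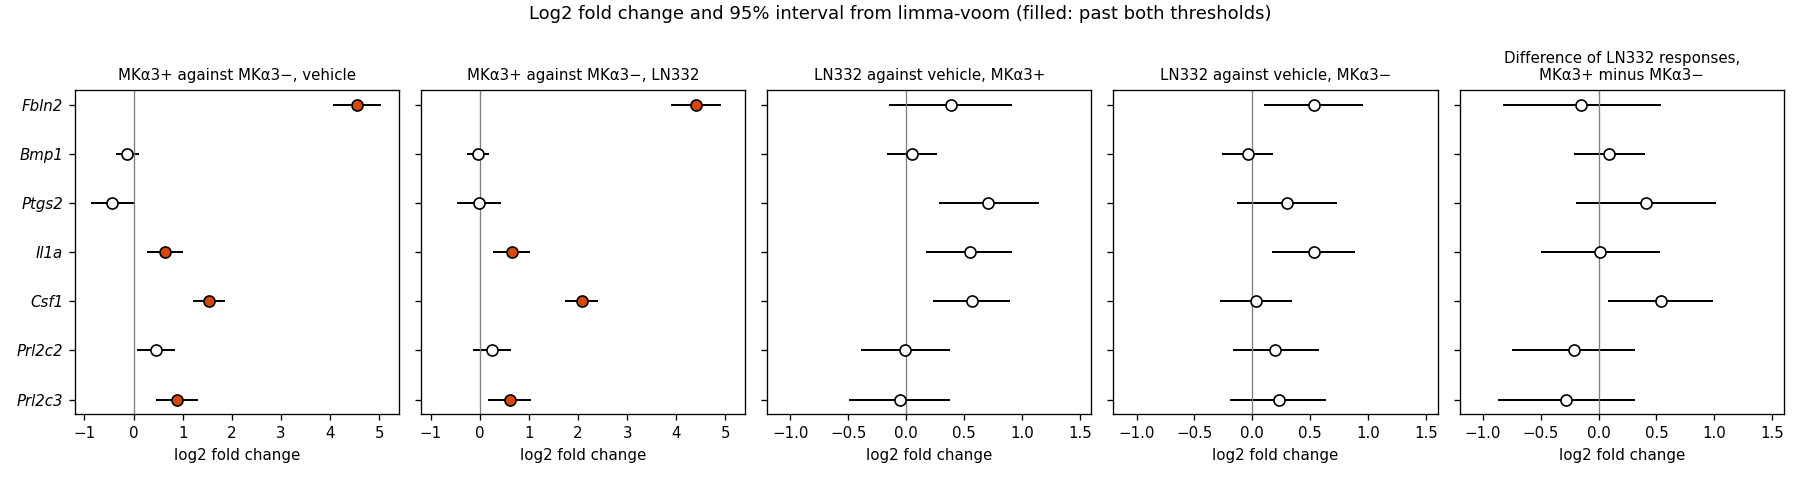
Log2 fold change (horizontal axes) and 95% interval of the 7 genes from limma-voom in the comparisons of the lines in vehicle and in LN332, of LN332 with vehicle in each line, and in the difference of the LN332 responses. Filled points passed both thresholds. The first panels run to a wider scale, 4 genes are filled in each of them and none in the others, where *Csf1* is the gene whose interval lies above 0 in the last panel (0.09 to 0.98).

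The difference of the LN332 responses (MKα3+ minus MKα3−) was tested directly. No member passed in limma-voom, edgeR or DESeq2, as for all genes (0%), and 1 had an unadjusted p under 0.05. This was *Csf1*, with a log2 difference of 0.54 (SE 0.21, 95% interval 0.09 to 0.98, adjusted p = 0.9999 in limma-voom). For *Il1a* the difference was 0.01 (95% interval -0.49 to 0.52), for *Fbln2* -0.15 (-0.82 to 0.53) and for *Ptgs2* 0.41 (-0.19 to 1.01). A response in MKα3+ cells that differs from that in MKα3− cells is therefore not shown for any of the 7 genes.

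Per kilobase of exon, *Prl2c2* was the most abundant of the 7 in every group. In vehicle-treated MKα3− cells *Prl2c2* had 820 CPM per kb, *Prl2c3* 218 and *Il1a* 113, and *Bmp1* (17.5), *Csf1* (17.3) and *Ptgs2* (17.1 ± 4.22) could not be ordered within their spread. *Fbln2* came last at 8.35 ± 3.11 CPM per kb. In vehicle-treated MKα3+ cells *Fbln2* reached 186 ± 7.61 CPM per kb, next to *Il1a* at 172 ± 10.8, and *Csf1* reached 49.3 ± 3.46, above *Bmp1* (16 ± 0.593) and *Ptgs2* (12.6 ± 2.03). Fibulin-2 transcript thus moved from the last to the third rank of the 7 by mean.

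Profiles over the 16 libraries were compared by the root mean square difference of log2 CPM after each gene was centred on its own mean. The gene most like *Fbln2* was *Prrg1* (0.264), followed by *Defb41* (0.318) and the claudin gene *Cldn3* (0.349), where the spread of *Fbln2* about its own mean was 2.27. The gene most like *Csf1* was *Plau*, which encodes urokinase (0.204), and that most like *Il1a* was *Plaur*, which encodes the urokinase receptor (0.165). *Plau* averaged 596, 656, 1431 and 2213 CPM in vehicle- and LN332-treated MKα3− and then vehicle- and LN332-treated MKα3+ cells. Nearest to *Ptgs2* was *Ripor2* (0.198), to *Bmp1* *Rabep2* (0.0814), to *Prl2c2* *Myzap* (0.14) and to *Prl2c3* *Tle5* (0.173). The proliferins differed from each other by 0.207, which was the smallest value between any 2 of the 7, and the next was 0.363 between *Bmp1* and *Prl2c2*.

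Other genes of the same pathways were read from lists chosen by function. Among prostaglandin genes, 12 of 19 were measured, of which 5 were lower and 2 higher in vehicle-treated MKα3+ cells (18.5% of all genes were called in either direction). *Ptgs1*, the constitutive cyclooxygenase, averaged 103 ± 18.1 CPM without and 34 ± 10.3 CPM with α3 (SD, n = 4 each), a log2 fold change of -1.63 (adjusted p = 0.000169). *Pla2g4a*, the phospholipase that releases arachidonic acid, had a log2 fold change of -1.22 (adjusted p = 3.68e-05), and *Ptger1*, a prostaglandin E2 receptor gene, one of -0.82. *Ptges*, a prostaglandin E synthase gene, had one of -0.73 (adjusted p = 0.00774). *Ptgds*, a prostaglandin D synthase gene, rose by 2.67 on the log2 scale, though at only 1.75 ± 0.572 CPM. The other higher gene was *Slco2a1*, on the list for prostaglandin transport. It rose from 27.4 ± 8.98 to 49.1 ± 10.9 CPM (log2 fold change 0.87, adjusted p = 0.012), with overlap between the lines. In LN332 4 were lower and 2 higher. There *Ptges* had a log2 fold change of -0.87 (adjusted p = 0.00211) and *Slco2a1* one of 0.78 (adjusted p = 0.0177).

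Of the fibulins and matrix partners of fibulin-2, 12 of 17 were measured, and 2 were higher and 1 lower in vehicle, close to the 18.5% called over all genes. *Fn1*, the fibronectin gene, rose from 7.32 ± 2.57 to 32.8 ± 10.2 CPM (log2 fold change 2.19, adjusted p = 6.24e-05), *Fbn1* (fibrillin-1) had a log2 fold change of 0.74, and *Fbln1*, the fibulin-1 gene, one of -0.81 (adjusted p = 0.0423). In LN332 3 were higher and 0 lower by limma-voom, *Fn1* by 2.30. Of tolloid proteinases, enhancers and substrates, 15 of 18 were measured, with 2 higher and 1 lower in vehicle, again close to the 18.5% over all genes. The higher ones encode procollagen C-proteinase enhancers, which act with the proteinase made from *Bmp1*: *Pcolce2* had 10.9 ± 2.14 against 1.24 ± 0.213 CPM (log2 fold change 3.10, adjusted p = 7.29e-07) and *Pcolce* a log2 fold change of 0.84 (adjusted p = 3.72e-05). *Chrd*, the gene of the tolloid substrate chordin, had a log2 fold change of -2.12 at 0.411 ± 0.116 CPM in MKα3+ cells. In LN332 *Pcolce2* (2.89) and *Pcolce* (0.84) were the 2 called, both higher.

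In the interleukin-1 family, 18 of 23 genes were measured, with 4 higher and 2 lower in vehicle and 1 higher and 2 lower in LN332, beside 18.5% and 20.6% called over all genes. *Casp1*, whose protease matures interleukin-1β, had a log2 fold change of -1.21 in vehicle and -1.46 in LN332, and *Capn1*, whose product is a calpain, a protease family that can cleave the interleukin-1α precursor, had -0.68 and -0.70. The alarmin gene *Il33* rose by 2.04 and 3.37 but stayed at 2.47 ± 1.37 and 4.02 ± 0.946 CPM in MKα3+ cells. *Il18* rose by 0.82 in vehicle. Of the colony-stimulating factors and receptors, 8 of 8 were measured, with 2 higher and 0 lower in vehicle and again in LN332, not far from the same shares over all genes (18.5% and 20.6%). These were *Il34*, the gene of the other ligand of the CSF-1 receptor (log2 fold change 1.83 in vehicle, adjusted p = 0.000345, and 1.68 in LN332), and *Csf1r*, the receptor gene itself (1.51, adjusted p = 0.00256, and 0.89, adjusted p = 0.036). *Csf1r* is also a macrophage marker. Without the 3 libraries of the highest macrophage marker sums, its log2 fold change was 1.04 in vehicle (adjusted p = 0.00996) and 0.59 in LN332 (adjusted p = 0.0545), and that of *Il34* was 1.75 and 1.62.

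Of the prolactin family and its receptors, 4 of 11 were measured. *Igf2r*, the gene of a receptor that binds proliferin, was lower in vehicle (log2 fold change -0.69, adjusted p = 0.0007), and 0 of the 4 were called in LN332 by limma-voom. Over the 68 different pathway genes (*Hspg2* is in 2 lists), 0 passed with LN332 in either line in limma-voom, edgeR or DESeq2, with 5 at an unadjusted p under 0.05 in MKα3+ and 10 in MKα3− cells, where 1388 and 2023 of all 14474 genes were. With the replicate block and only the libraries of 1 line in the fit, 1 gene was called in MKα3+ cells (*Hmcn1*) and 1 in MKα3− cells (*Ptgs1*).

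**Figure D4:**
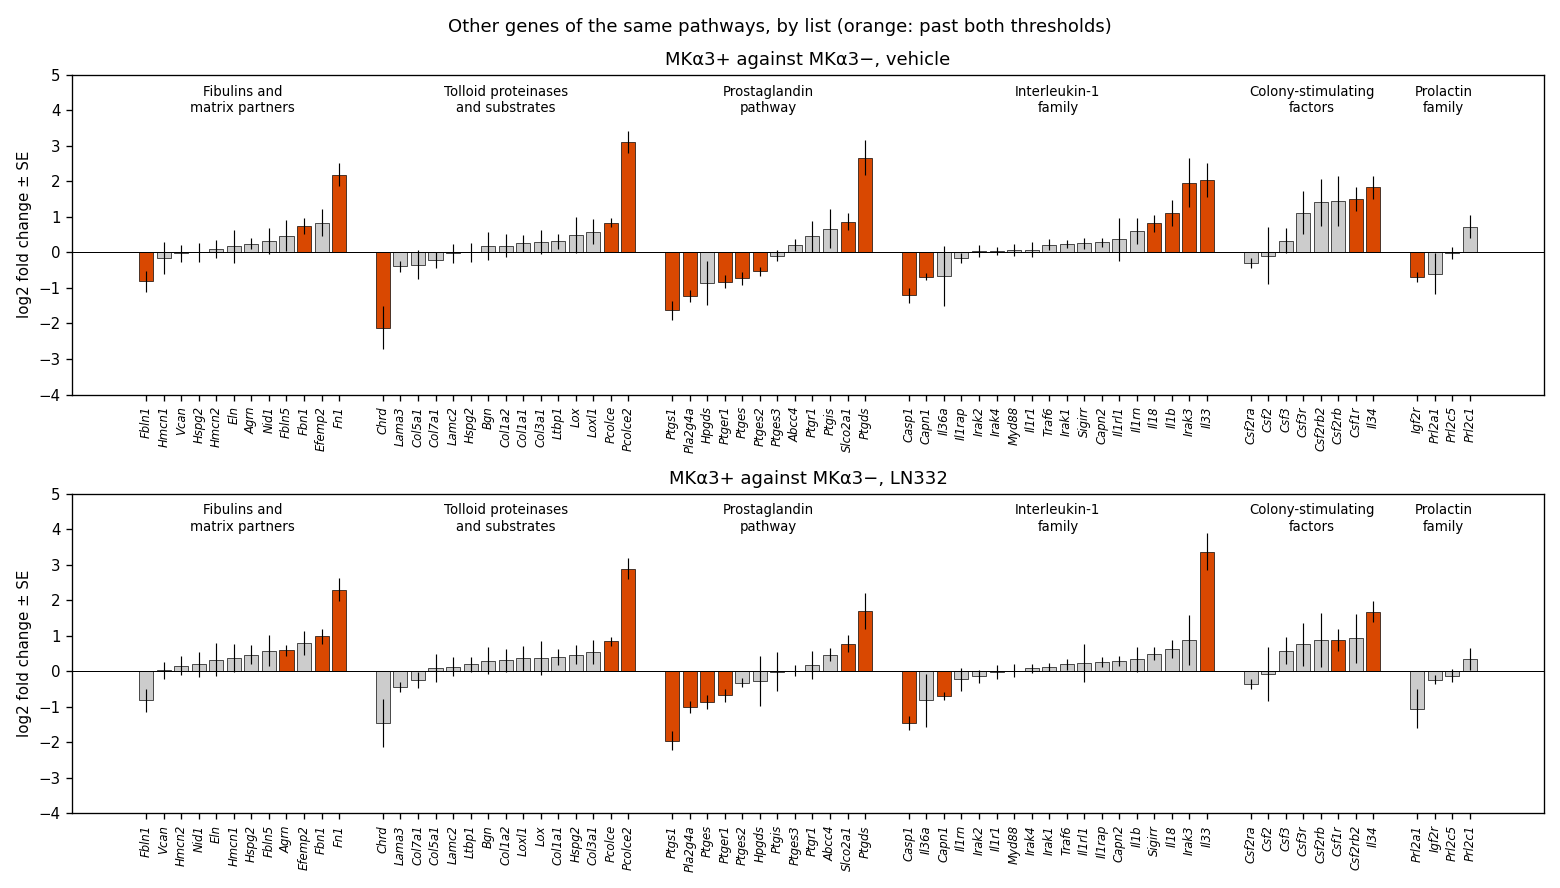
Log2 fold change ± SE of the measured pathway genes other than the 7, MKα3+ against MKα3− cells, in vehicle (top) and LN332 (bottom), sorted within each list. Orange bars passed both thresholds. The prostaglandin list has 5 lower and 2 higher orange bars in vehicle, and *Pcolce2* (3.10) is the tallest bar of the upper panel.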

How the data were processed

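Per the study's methods, reads were mapped to mm10 by Rsubread and assigned to Entrez genes by featureCounts with the annotation it carries. The authors deposited these raw counts. The submitters' processing notes also name bcl2fastq 2.20. The strand setting is not given in the sources used here, so overlapping genes on opposite strands are uncertain. The table of 14474 genes had passed a filter on low counts, and requiring more than 0.5 CPM in at least 3 libraries removed 0 genes. Of these genes 284 had no symbol.

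From the counts, TMM factors (edgeR 4.0.16) and limma-voom (limma 3.58.1, R 4.3.3) were computed over all 16 libraries in a single fit with a coefficient per group, as the methods name this workflow, and adjusted p-values are from that fit unless another tool or fit is named. Thresholds were an adjusted p under 0.05 over all genes and an absolute log2 fold change over 0.5 (for the difference of responses, adjusted p alone). Exact permutation tests compared mean CPM two-sided. Replicates of a group differed by more than sampling noise (smallest chi-square per degree of freedom 5.45).

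The labels number replicates 1 to 4 in every group. Deviations from the group means of same-numbered MKα3+ libraries correlated at 0.202 to 0.62 across genes, all over 0.1, so these were treated as paired by the data. In the other comparisons at least 1 number fell under 0.1, and numbers were not treated as pairs. Alternative fits used DESeq2 1.42.0, the quasi-likelihood test of edgeR, scaling by DESeq2's size factors or by library size alone, no filter, 10 counts or more in every library, sample quality weights, the replicate block, fits of only the groups compared, a minimum log2 fold change of 0 or 1, and each library left out. Leaving out replicate 1 of all groups, leaving out 3 libraries rich in macrophage markers, the block with only the groups compared, the summed proliferin counts and the *Prl2c3* share were added after seeing the data.

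The 7 genes and all lists were chosen with earlier results of these data known. Besides the 7, the text names *Itga3*, the genes nearest in profile among those whose mean log2 CPM reached 1 (up to 3 per member), and the pathway genes past the thresholds without overlap between groups, at most 3 per direction and list. *Prl2c1*, *Prl2c5*, *Gm14023*, *Hmcn1*, *Hspg2*, *Slco2a1*, *Itga6* and *Itgb4* were named outside this rule, as was *Ptges* in vehicle. Gene positions and promoters are from RefSeq (GRCm38.p6), and exons and coding sequences from GENCODE M21.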

Additional observations from a re-analysis of the deposited data

Results flagged for a closer look

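Among 28 groups of 4 libraries (7 genes in 4 groups), 1 held a library far from the others, where chance flags about 1 in 20 groups, or 1.4 of 28. This was *Ptgs2* in MKα3+ vehicle replicate 1, at 43.7 CPM, with the other 3 libraries between 60.4 and 63.5 CPM. Its gap to the nearest library was 0.843 of the whole range of the group.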

How the results depend on the processing

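Among the comparisons of the lines, 4 members were called in vehicle and 4 in LN332 under most alternatives. With a minimum log2 fold change of 1 there were 2 and 2 (*Fbln2* and *Csf1*), by the construction of that threshold. With the 3 libraries rich in macrophage markers left out there were 3 and 3. Over all genes that smaller fit also called fewer, 1902 in vehicle and 2399 in LN332, against 2676 and 2987 in the main fit. For the LN332 response it called 0 genes in MKα3+ and 1 in MKα3− cells. Without replicate 1 of all groups *Prl2c3* in LN332 missed the threshold (0.51, adjusted p = 0.0561). With each library left out the counts of members were 4 to 5 in vehicle and 3 to 4 in LN332, and 0 for either LN332 response and for the difference of responses (0 to 0). Between the lines the same fits called 2345 to 2754 of all genes in vehicle and 2590 to 3338 in LN332. For LN332 in MKα3+ cells the count of 0 became 2 with DESeq2, 2 with the replicate block, 3 with sample quality weights, 3 with only the groups compared, 3 with the replicate block and only the groups compared, and 1 without replicate 1 of all groups (*Ptgs2*, adjusted p = 0.0191). In MKα3− cells it became 2 with the replicate block (*Fbln2*, adjusted p = 0.0444, and *Il1a*, 0.0491), 2 with the replicate block and only the groups compared, and 1 without replicate 1 (*Il1a*, 0.0493). The replicate block changed no other count of members. Outside the MKα3+ pairs the correlations of deviations of same-numbered libraries ran from -0.0469 to 0.558, so some but not all of these libraries deviated together. No call on a member changed direction, and the cause of the lost and gained calls was not tested.

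Over all genes, the number called with LN332 in MKα3+ cells was 27 (25 higher) and became 4 with edgeR, 121 with DESeq2, 218 with the block, 454 with quality weights, 106 with only the groups compared, 516 with block and only the groups compared, 87 without replicate 1, 5 at a minimum log2 fold change of 1, 3 (2 higher) by library size alone, and 0 to 47 with a library left out. In MKα3− cells it was 44 (35 higher, 9 lower) and became 165, 259, 123, 1, 183, 163 and 6 under DESeq2, the block, quality weights, only the groups compared, block and only the groups compared, no replicate 1 and the minimum of 1, 74 (24 higher, 50 lower) by library size alone, and 1 to 150 with a library left out. Between the lines, the minimum of 0 gave 4115 genes in vehicle and 4654 in LN332, and that of 1 gave 1362 and 1345, against 2676 and 2987. Each member had at least 1025 counts in every library, and each group had 4 libraries.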
